A study of Rattus norvegicus with 32 samples.

Results

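The BCL2 family of apoptosis regulators was followed through 10 of its genes, Bcl2, Bcl2l1, Mcl1, Bcl2l2, Bax, Bak1, Bcl2l11, Bbc3, Bid and Bmf, in the left ventricle of septic rats. A probe was counted to a gene when the array's own annotation, in either of the 2 versions found in the scanner files, gave it that gene symbol. The 10 genes are among 27955 with a symbol on the array, and 21 of its 45598 non-control probes are theirs. Of these 21 probes, 17 were kept in males and 19 in females after probes near background were set aside, and each of the 10 genes kept at least 1 probe in both sexes.

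The study asked how the hearts of male and female rats respond to sepsis and to landiolol, a short-acting blocker of the beta-1 adrenergic receptor. Wistar rats aged 9 to 12 weeks had sham surgery, or caecal ligation and puncture (CLP), in which bowel contents leak into the abdomen and cause polymicrobial sepsis, or CLP followed by landiolol (CLP-Lnd). Each sex gave 5 sham, 5 CLP and 6 CLP-Lnd hearts, with 1 array per heart. Landiolol ran at 0.1 mg/kg/min from 1 h after CLP, and the sham and CLP rats received saline, so that the volume infused was similar in all groups. All rats had buprenorphine for pain before surgery, were imaged at 18 h, and had their hearts measured outside the body on a perfusion system before collection at 20 h. Those steps are common to sham and septic hearts alike. No group had landiolol without CLP, so the drug was measured only in septic hearts.

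The proteins of this family decide whether the outer membrane of the mitochondrion is breached. BAX and BAK1 are the effectors that form pores through which cytochrome c leaves to start the caspases. BCL2, BCL-XL (made from Bcl2l1), MCL1 and BCL-W (made from Bcl2l2) hold the effectors and their activators in check. BIM (Bcl2l11), PUMA (Bbc3), BID and BMF are BH3-only proteins, which sense stress and either neutralise the pro-survival proteins or activate the effectors directly. In the heart muscle cell, which is seldom replaced, MCL1 and BCL-XL are known for keeping mitochondria intact. Much of the control of these proteins lies in splicing, turnover and cleavage, which a transcript level does not show.

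The level of a probe is given as log2 of its background-corrected signal after quantile normalisation over the 16 arrays of a sex, so that a difference of 1 is a doubling. Levels of different probes cannot be set against each other, because each probe has its own efficiency, and none of the levels below is compared between genes. Each gene was read through the kept probe that was brightest on average over all arrays, and these 10 probes were well above background on all 32 arrays. Differences came from limma fits over all probes kept, 25866 in males and 25395 in females, with Benjamini-Hochberg adjustment. A probe was taken to change at a false discovery rate (FDR) of 1% for CLP against sham and for CLP-Lnd against sham, and of 5% for CLP-Lnd against CLP and for differences between the sexes. The 3 comparisons of a sex share their arrays, so a low CLP group alone gives a fall against sham and a higher value in CLP-Lnd against CLP.

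Spots well above background numbered 34920 to 43155 an array, the mean correlation of an array with its own group was 0.951 to 0.982, and 0 spots were saturated. All 8 cardiomyocyte markers were well above background on all 32 arrays and their summed signal lay between 20.89 and 21.35 on the log2 scale over the 6 groups. The arrays came on 4 slides, 2 for each sex, so sex and slide cannot be told apart. On the female slides every sham array lay in the first row and every CLP-Lnd array in the second, while the CLP arrays fell in both. Some female results that passed an FDR of 1% or 5% have beside them values from a fit with slide row as a term. These are the results of Bcl2l1, Mcl1, Bcl2l2, Bmf and Bcl2l11 on the brightest kept probe. Female results that passed on other probes or for other genes stand without such values. The signal is that of the whole ventricle, in which fewer cells of a type and less RNA per cell cannot be told apart.

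The sequence behind the Bcl2l1 result is shown first, since this gene has probes that disagree. The Bcl2l1 probe used here lies on the minus strand of rn4 at chr3:143178503-143178562. It begins with an ATG, in capitals, and reads through 20 codons with 0 stops, and this is the amino end of the BCL-XL reading frame.
Bcl2l1 probe: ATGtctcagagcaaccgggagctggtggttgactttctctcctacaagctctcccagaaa
The other Bcl2l1 probes lie further along the gene. A pair of them carry the same 60 bases, at chr3:143176523-143176582, and were well above background on 24 and 22 arrays. The remaining one was above background on 7 arrays and was kept in neither sex. The annotation of the female arrays gives the probe used, the pair and the remaining one each a different transcript. Whether they read the same RNA was not tested.

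For Mcl1 and Bcl2l1, the 2 genes that passed the test, the bases before a transcript start are given from RefSeq (GRCr8), with matches to searched motifs in capitals. They were searched on both strands for 8 motifs: the STAT site TTCNNNGAA, the full cAMP response element TGACGTCA, its 5-base part TGACG (which every full element also contains), the AP-1 site TGANTCA, the box CCAAT, the FOXO site TGTTTAC, the GC box GGGCGG and the E box CACGTG. RefSeq promoters were listed for 8 of the 10 genes, all but Bax and Bbc3. The Mcl1 window, on the plus strand at chr2:185907918-185908167, held 1 GC box 91 bases and 1 TGACG 55 bases before the start, both on the reverse strand.
Mcl1 promoter: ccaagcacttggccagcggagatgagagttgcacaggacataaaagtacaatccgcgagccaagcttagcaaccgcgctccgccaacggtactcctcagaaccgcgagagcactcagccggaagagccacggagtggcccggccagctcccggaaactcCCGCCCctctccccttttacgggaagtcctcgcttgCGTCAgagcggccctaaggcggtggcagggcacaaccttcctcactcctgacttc
Bcl2l1 has 4 listed starts. The windows before the outermost start and the next held no match to any of the 8 motifs. The window before the start after those, on the minus strand at chr3:161763386-161763635, held 2 STAT sites, 94 and 13 bases before the start, and 1 CCAAT. The last window overlaps it and contains the same 2 STAT sites.
Bcl2l1 promoter, start 3: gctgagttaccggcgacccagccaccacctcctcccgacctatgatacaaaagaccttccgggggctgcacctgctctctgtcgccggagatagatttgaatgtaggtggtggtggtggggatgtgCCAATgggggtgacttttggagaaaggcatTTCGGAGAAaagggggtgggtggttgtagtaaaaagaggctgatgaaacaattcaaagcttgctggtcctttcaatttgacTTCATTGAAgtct
Among all 33469 RefSeq promoter windows of 250 bases, 7.67% held a STAT site, 18.2% a TGACG, 30.5% a GC box and 34% a CCAAT, so none of these is rare. A match describes the letters only.

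Bcl2l1 and Mcl1 rose with CLP in females, 2 of the 10 genes, where 3.63% of all probes passed the same FDR of 1% and 1.82% passed it as higher. In males 0 of the 10 genes passed, against 7.81% of all probes. At an FDR of 5%, which 16% of all probes passed and 7.86% as higher, 2 genes passed, Bcl2l2 and Bmf, both higher. An unadjusted limma p below 0.05 was held by 4 of the 10. That cut is a loose one, since a probe with a p of 0.0509 ranked 7486 among the 25866 male probes. The median difference over the 10 genes was 0.20 in males and -0.06 in females, beside 0.0091 and -0.015 over all probes. By role, the median CLP against sham difference of the 4 pro-survival genes was 0.40 in males and 0.59 in females, that of the 2 effectors 0.20 and -0.06, and that of the 4 BH3-only genes -0.15 and -0.25. Of the BH3-only genes 2 were higher and 2 lower in males, and 1 higher and 3 lower in females. Bid entered on its brighter probe, which holds a repeat described below. Its dimmer probe gave 0.46 in males and -0.30 in females, and the medians with that probe were not computed.

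**Figure D1:**
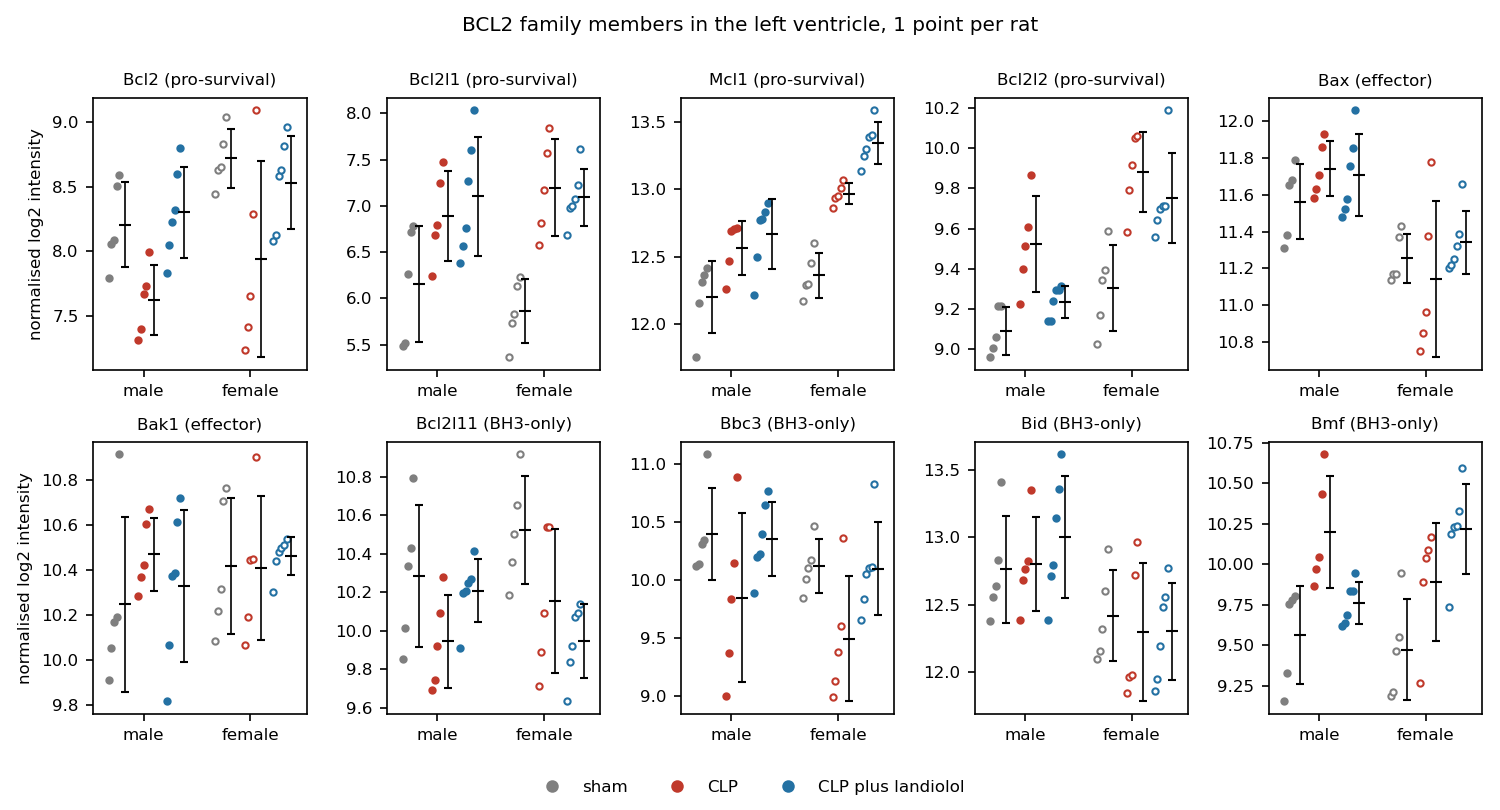
Log2 level (vertical axis, quantile-normalised within a sex) of the 10 genes, 1 panel a gene, on each of the 32 arrays, with sham, CLP and CLP-Lnd side by side for males (filled points) and females (open points), sorted by value within a group. Black bars are the group mean and SD (n = 5, 5 and 6). In the Bcl2l1 and Mcl1 panels all female CLP and CLP-Lnd points lie above all female sham points, while the Bax, Bak1 and Bid groups overlap throughout.

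Mcl1, which binds BAK1 and BIM and is a short-lived protein, was read on the minus strand of an unplaced piece of rn4 chromosome 2. In females its level was 12.17, 12.29, 12.29, 12.45 and 12.60 in the sham hearts and 12.86, 12.94, 12.95, 13.01 and 13.07 in the CLP hearts. The CLP-Lnd hearts had a lowest value of 13.13, a median of 13.34 and a highest of 13.59. On this probe no female group overlapped with another, with sham lowest and CLP-Lnd highest. Female sham and CLP did not overlap for 8.32% of all probes. Mcl1 rose by 0.60 with CLP (SE 0.12, 95% interval 0.35 to 0.85, 1.52-fold), with a limma adjusted p of 0.00432. In CLP-Lnd it was 0.98 above sham (SE 0.11, interval 0.74 to 1.22, 1.97-fold), with an adjusted p of 8.15e-05. The step from CLP to CLP-Lnd was 0.38 (interval 0.14 to 0.62), which did not pass, at an adjusted p of 0.241, although the groups did not overlap, as was so for 1.15% of all probes. Within each of the 2 female slides the differences were 0.59 and 0.61 for CLP against sham, 0.99 and 0.97 for CLP-Lnd against sham, and 0.40 and 0.36 for CLP-Lnd against CLP.

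The female Mcl1 call for CLP against sham lay close to its limit. With the sham and CLP arrays fitted alone it did not pass, at an adjusted p of 0.0210. Of the 10 fits that left out 1 sham or CLP array, 6 no longer passed the 1% limit (sham replicates 1, 4 and 5 and CLP replicates 1, 3 and 4), with adjusted p from 0.0101 to 0.0142. When slide row was a term of the fit the difference was 0.64 for CLP against sham (adjusted p = 0.0160) and 1.08 for CLP-Lnd against sham (adjusted p = 0.0449). The other Mcl1 probe gave 0.37 for CLP against sham (interval 0.01 to 0.73, adjusted p = 0.198) and 0.46 for CLP-Lnd against sham (adjusted p = 0.0766). Neither passed on that probe. For CLP-Lnd against CLP it gave 0.09 (adjusted p = 0.927), and on it the female groups overlapped in each comparison.

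In males the Mcl1 level was 11.75, 12.16, 12.31, 12.37 and 12.41 in sham hearts and 12.26, 12.47, 12.69, 12.70 and 12.72 in CLP hearts, and it ran from 12.22 over a median of 12.77 to 12.90 in CLP-Lnd hearts. The male groups overlapped, with the septic hearts mostly above the sham hearts. The differences from sham were 0.37 for CLP (interval 0.03 to 0.70, adjusted p = 0.135) and 0.46 for CLP-Lnd (interval 0.14 to 0.79, adjusted p = 0.0653), and neither passed. Landiolol against CLP gave 0.10 (interval -0.22 to 0.42).

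To compare how far the genes moved, the 6 group means were each taken relative to the mean of their own sex, with all arrays normalised together, and the range over the 6 was called the span. Bcl2l1 had the widest span of the 10 genes, 1.33 on the log2 scale. In females its level was 5.36, 5.74, 5.83, 6.14 and 6.23 in sham hearts and 6.58, 6.81, 7.17, 7.58 and 7.85 in CLP hearts, and it ran from 6.69 over a median of 7.03 to 7.61 in CLP-Lnd hearts. All septic hearts lay above all sham hearts, and the CLP and CLP-Lnd groups overlapped. Bcl2l1 rose by 1.34 with CLP (SE 0.24, interval 0.82 to 1.85, 2.52-fold, adjusted p = 0.00277). With the sham and CLP arrays fitted alone the same difference had an adjusted p of 0.0137 and did not pass. It was 1.23 above sham in CLP-Lnd (SE 0.23, interval 0.74 to 1.73, 2.35-fold, adjusted p = 0.00266). Between CLP-Lnd and CLP the difference was -0.10 (interval -0.59 to 0.39). Within the 2 female slides the CLP against sham difference was 1.31 and 1.53.

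Only this probe of Bcl2l1, which covers the start of the reading frame, passed. The pair of probes with the shared sequence gave -0.08 (adjusted p = 0.911) and 0.20 (adjusted p = 0.721) for CLP against sham in females, and 0.35 and 0.57 for CLP-Lnd against sham. Both were not well above background on all arrays. Slide row also moved the result. With it in the fit the female difference was 0.99 for CLP (adjusted p = 0.0220) and 0.38 for CLP-Lnd against sham (adjusted p = 0.790), so that the landiolol group's distance from sham cannot be told apart from the row in these arrays.

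**Figure D2:**
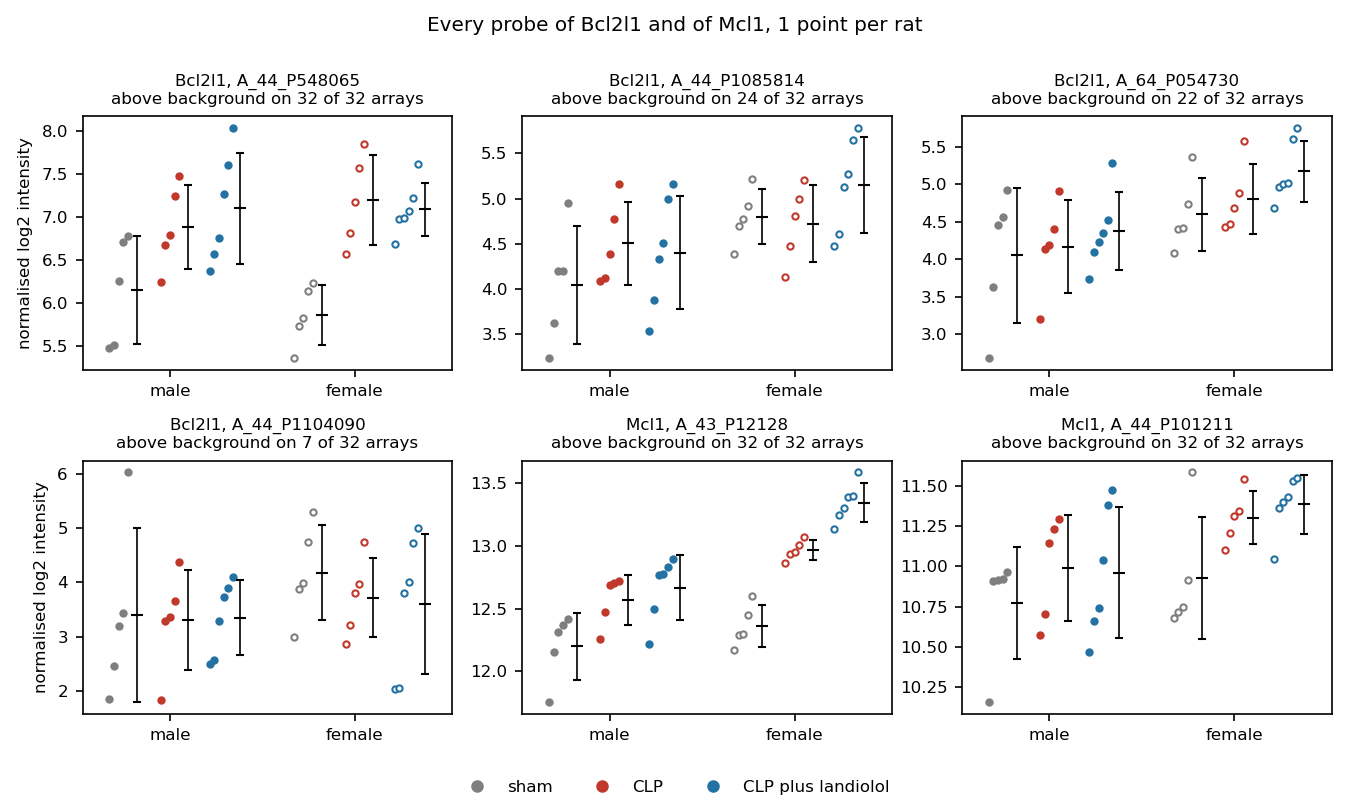
Log2 level (vertical axis, quantile-normalised within a sex) on each array for all 4 probes of Bcl2l1 and both of Mcl1, 1 panel a probe, with males as filled and females as open points sorted by value within a group, and black bars for the group mean and SD (n = 5, 5 and 6). The first Bcl2l1 panel, the probe at the start of the reading frame, is the only one of the 4 where all female septic hearts lie above sham, and the pair with a shared sequence was above background on 24 and 22 of 32 arrays.

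In male hearts the Bcl2l1 level was 5.48, 5.52, 6.26, 6.72 and 6.78 in sham and 6.24, 6.68, 6.79, 7.25 and 7.48 in CLP, and it ran from 6.38 over 7.01 to 8.04 in CLP-Lnd. The 2 lowest male sham hearts lay below all septic hearts, and the other 3 lay among them. The difference was 0.74 for CLP (interval -0.01 to 1.48, adjusted p = 0.181) and 0.95 for CLP-Lnd against sham (interval 0.24 to 1.66, adjusted p = 0.0886). Neither passed the limit, and both intervals include the female estimates.

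Bcl2, the founding pro-survival gene, leaned the other way. In males its level was 7.80, 8.06, 8.09, 8.50 and 8.59 in sham, 7.32, 7.40, 7.67, 7.74 and 8.00 in CLP, and 7.83, 8.27 and 8.79 as the lowest, median and highest of CLP-Lnd. CLP hearts were lowest, with overlap of all 3 groups. The differences were -0.58 for CLP against sham (interval -1.004 to -0.16, adjusted p = 0.059), 0.68 for CLP-Lnd against CLP (interval 0.27 to 1.08, adjusted p = 0.0954) and 0.10 for CLP-Lnd against sham (interval -0.31 to 0.50). None passed, in a landiolol comparison where 0 of the 10 genes and 1.56% of all probes did. Those were 404 probes, and their number ran from 121 without replicate 4 of the male CLP hearts to 1058 without replicate 1. Within each male slide the landiolol difference was 0.69. Without replicate 1 of the male CLP hearts it was 0.77 and passed, with an adjusted p of 0.0418.

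In females Bcl2 was 8.44, 8.63, 8.65, 8.83 and 9.04 in sham and 7.24, 7.41, 7.66, 8.29 and 9.09 in CLP, and 8.08, 8.60 and 8.96 were the lowest, median and highest of CLP-Lnd. A single CLP heart, replicate 5, was above every sham heart, and the other 4 were below them all. The difference with CLP was -0.78 (interval -1.40 to -0.16, adjusted p = 0.114), and without that heart it was -1.07, which passed with an adjusted p of 0.00931. Within the 2 female slides CLP against sham gave -1.51 and -0.19, and CLP-Lnd against CLP gave 1.18 and 0.21. The landiolol difference of 0.59 had an interval of -0.003 to 1.19, and 0 of the 10 genes passed that comparison in females, where 0.0945% of all probes did.

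Bcl2l2, a relative of BCL2 and BCL-XL, was above sham after CLP in both sexes without reaching the 1% limit. Male sham hearts had 8.96, 9.0, 9.06, 9.21 and 9.21 and male CLP hearts 9.22, 9.40, 9.51, 9.61 and 9.87, and CLP-Lnd ran from 9.14 to 9.31. Male sham and CLP did not overlap, as was so for 12.3% of all probes, and the difference was 0.43 (interval 0.19 to 0.68, adjusted p = 0.0168). Without replicate 1 of the male CLP hearts it was 0.51 and passed, with an adjusted p of 0.00494. CLP-Lnd against CLP gave -0.29 (interval -0.52 to -0.05, adjusted p = 0.228). Female sham hearts had 9.02, 9.17, 9.34, 9.39 and 9.59 and female CLP hearts 9.58, 9.79, 9.92, 10.05 and 10.06, so that the groups met at 1 heart each. CLP against sham gave 0.58 there (interval 0.26 to 0.90, adjusted p = 0.0228) and CLP-Lnd against sham 0.45 (adjusted p = 0.0493). With slide row in the fit these were 0.67 (adjusted p = 0.0383) and 0.67 (adjusted p = 0.386). The second Bcl2l2 probe went along in CLP against sham, with 0.35 in males and 0.22 in females, and gave -0.13 for CLP-Lnd against sham in females.

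The 2 effectors and Bid had the narrowest spans within the sexes of the 10 genes, measured as for Bcl2l1. The span was 0.202 for Bax, 0.218 for Bak1 and 0.241 for Bid on the log2 scale. Bid was read on its brighter probe, which holds a repeat described below, and the span of its other probe was not computed. The male hearts had Bax levels of 11.31 to 12.06 and the female hearts 10.75 to 11.78, and its CLP against sham difference was 0.18 in males (interval -0.11 to 0.46) and -0.11 in females (interval -0.49 to 0.26). The second Bax probe gave 0.22 and -0.06. For Bak1 the levels were 9.82 to 10.91 in the male and 10.07 to 10.90 in the female hearts, with CLP against sham differences of 0.22 (interval -0.19 to 0.64) and -0.01 (interval -0.36 to 0.35). Landiolol against CLP gave -0.03 and 0.20 for Bax, and -0.14 and 0.05 for Bak1, in males and females. None of these passed, and changes up to the ends of these intervals cannot be set aside.

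Among the BH3-only genes, Bmf, whose product is released from the cytoskeleton under stress, had the widest span relative to the mean of each sex, 0.757 on the log2 scale. Male sham hearts had 9.15, 9.33, 9.76, 9.78 and 9.81, male CLP hearts 9.87, 9.97, 10.04, 10.43 and 10.68, and CLP-Lnd hearts ran from 9.62 over 9.76 to 9.94. Male CLP lay above all male sham hearts, and CLP-Lnd lay mostly back among the sham values. The differences were 0.63 for CLP against sham (interval 0.27 to 0.99, adjusted p = 0.0181), -0.44 for CLP-Lnd against CLP (interval -0.78 to -0.09, adjusted p = 0.212) and 0.19 for CLP-Lnd against sham. Without replicate 1 of the male CLP hearts the CLP against sham difference was 0.72 and passed, with an adjusted p of 0.00987.

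In females Bmf was 9.18, 9.21, 9.46, 9.55 and 9.95 in sham, 9.26, 9.89, 10.04, 10.09 and 10.16 in CLP, and 9.73, 10.23 and 10.59 as the lowest, median and highest of CLP-Lnd. Here CLP-Lnd was the highest group, with overlap. CLP against sham gave 0.42 (interval -0.01 to 0.84), CLP-Lnd against CLP 0.33 (interval -0.08 to 0.74) and CLP-Lnd against sham 0.75 (interval 0.34 to 1.15, adjusted p = 0.0183). With slide row in the fit the last of these was 1.14 (adjusted p = 0.209). A second Bmf probe gave 0.88 for it (adjusted p = 0.0169), with groups that did not overlap. The remaining one was not above background on any array and was not kept.

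Bcl2l11, which encodes the activator BIM, was below sham in the septic hearts of both sexes on its brightest probe, and no difference passed. Female sham hearts had 10.18, 10.36, 10.505, 10.65 and 10.92, female CLP hearts 9.71, 9.89, 10.09, 10.54 and 10.54, and CLP-Lnd hearts ran from 9.63 over 9.995 to 10.14. CLP-Lnd did not overlap with sham, as was so for 9.74% of all probes, and differed by -0.57 (interval -0.95 to -0.20, adjusted p = 0.0437). With slide row in the fit the difference was 0.01 (adjusted p = 0.994), of the opposite sign. The 2 other Bcl2l11 probes gave 0.06 and -0.18. CLP against sham gave -0.37 in females and -0.34 in males (interval -0.70 to 0.02), and the male values ran from 9.86 to 10.79 in sham, 9.69 to 10.28 in CLP and 9.91 to 10.42 in CLP-Lnd.

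Bbc3 encodes PUMA, a target of p53. Its level in males was 10.12, 10.14, 10.31, 10.35 and 11.09 in sham and 9.0, 9.37, 9.84, 10.15 and 10.89 in CLP, and in females 9.84, 10.02, 10.11, 10.18 and 10.47 in sham and 8.99, 9.14, 9.38, 9.60 and 10.37 in CLP. In males 3 of 5 CLP hearts and in females 4 of 5 lay below all sham hearts, with overlap by the rest. The difference was -0.55 in males (interval -1.18 to 0.08, adjusted p = 0.247) and -0.63 in females (interval -1.15 to -0.10, adjusted p = 0.135). CLP-Lnd hearts, with medians of 10.32 and 10.08, differed from sham by -0.04 and -0.02. Against CLP they were 0.51 (interval -0.10 to 1.11) and 0.60 (interval 0.10 to 1.11, adjusted p = 0.423) higher, and neither passed.

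Bid links death receptors to mitochondria after cleavage by caspase-8. Its brighter probe, at chr4:157295515-157295574 of rn4, carries the Bid symbol only in the annotation of the female files. It is shown in part, bases 22 to 51, because 20 of its bases (in capitals) are also found in 45 of the 33469 promoter windows, whereas the other 20 probes of the 10 genes had no 20-base stretch in any window.
Bid probe, bases 22 to 51: tgagcTGGAGAGATGGCTCAGTGGTgccga
These bases are the start of the B2 short interspersed repeat, which is found across rodent genomes, so the signal of that probe may hold other transcripts. It gave 0.04 in males and -0.12 in females for CLP against sham. The dimmer Bid probe, without a repeat, gave 0.46 (adjusted p = 0.176) and -0.30 (adjusted p = 0.489). On the dimmer probe the CLP effect in males minus that in females was 0.76 (interval 0.10 to 1.43). That difference had an unadjusted limma p of 0.0256 and did not pass, at an adjusted p of 0.9999.

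For CLP-Lnd against sham, 2 of the 10 genes passed in females, Mcl1 and Bcl2l1, where 5.25% of all probes did and 3% as higher, and 0 of the 10 in males, where 4.15% did. The median difference was 0.06 in females and 0.15 in males, beside 0.00057 and -0.0023 over all probes. At an FDR of 5%, which 12.8% of all probes passed, 5 genes passed in females: Bcl2l1, Mcl1, Bcl2l2, Bmf and Bcl2l11, the first 4 higher and the last lower. With slide row in the fit, Mcl1 alone of these 5 had an adjusted p within 5%, 0.0449. For CLP-Lnd against CLP the median over the 10 genes was 0.15 in males and 0.12 in females, beside -0.0062 and 0.028 over all probes.

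**Figure D3:**
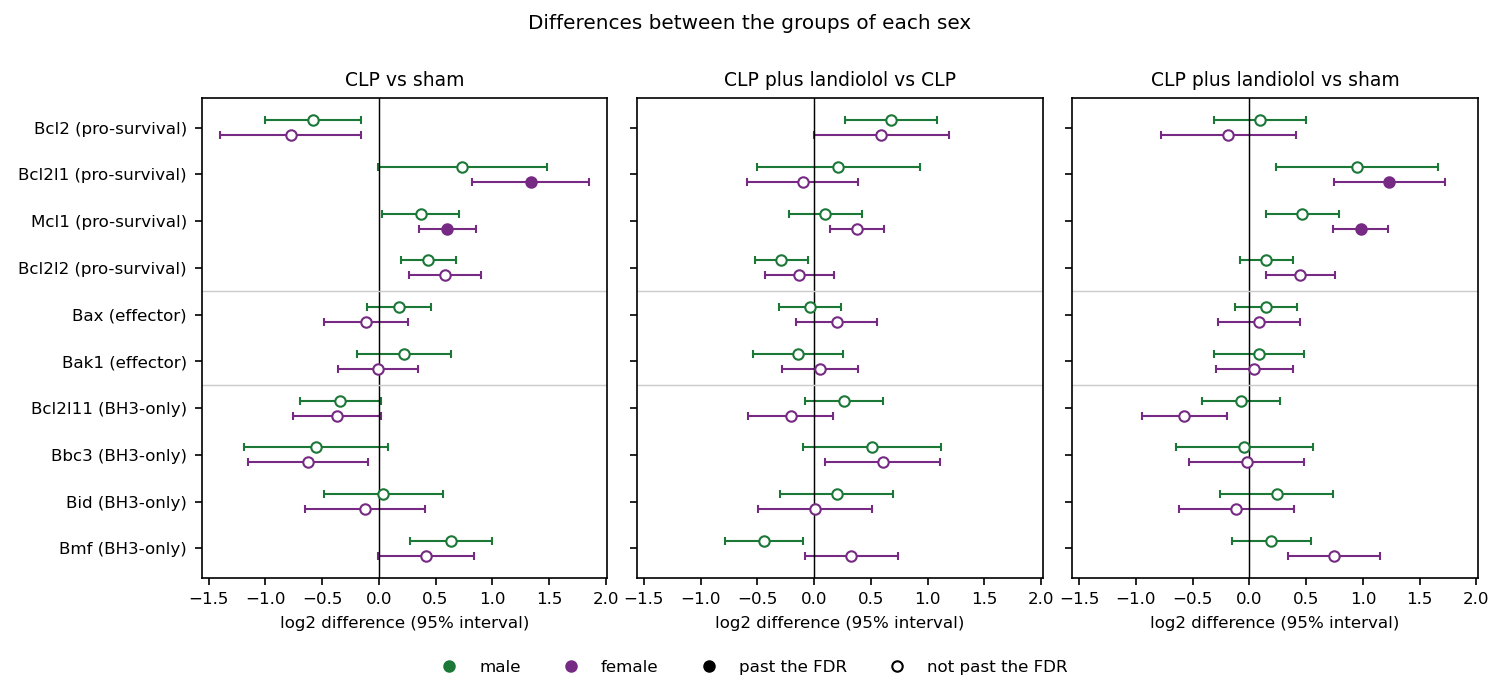
Log2 difference (horizontal axis, points with 95% limma intervals) of the 10 genes, ordered by role, for each of the 3 comparisons in males and females, with filled points where the FDR limit of that comparison was passed. The points filled are those of Bcl2l1 and Mcl1 in females, for CLP and for CLP-Lnd against sham.

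The effects of the sexes were not shown to differ. In the fit over all 32 arrays, 0 of the 10 genes and 0% of 26492 probes passed the test of the difference at an FDR of 5%, for CLP against sham and for CLP-Lnd against CLP, where 995 and 1307 probes had an unadjusted p below 0.05. For Bcl2l1 the CLP effect in males minus that in females was -0.60 (interval -1.50 to 0.30), and for Mcl1 it was -0.24 (interval -0.62 to 0.15). Over the 10 genes the sign of the CLP against sham difference was shared by the sexes for 7, all but Bax, Bak1 and Bid.

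The landiolol difference had the same sign in both sexes for 5 of the 10 genes. Bmf, lower with landiolol in males and higher in females, had the lowest p of the 10, with a difference between the sexes of -0.76 (SE 0.25, interval -1.28 to -0.25, limma adjusted p = 0.968). Its second probe gave -0.43 (interval -1.05 to 0.18). Bcl2l11 gave 0.47 (interval -0.02 to 0.96) with the opposite order, and neither passed.

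In 7 lists of further genes of the pathway, the genes past the limit are to be read beside the shares of all probes. For CLP against sham those shares were 7.81% in males and 3.63% in females, and for CLP-Lnd against sham 4.15% and 5.25%. The female results of these lists come from the fit without slide row, and whether they pass with it is not shown. The lists had median CLP against sham differences from -0.26 to 0.17 in males and from -0.38 to 0.17 in females. The outer membrane channels (8 genes) and the caspase inhibitors (6 genes) had no gene past the limit in any of the 6 comparisons. Lists of 8 and 6 genes are too short to tell that apart from these shares. Of the 15 caspases and apoptosome genes, all of them kept, 1 was lower in CLP-Lnd than in sham in females, and their median CLP against sham difference was -0.26 in males and -0.18 in females. It was Dffa, the inhibitor of the DNA-cutting enzyme of apoptosis (-0.83, adjusted p = 0.00154). Of the 11 genes of p53 and its targets, 1 passed in 1 comparison, Tp53inp1 in CLP-Lnd against sham in females (1.85, adjusted p = 0.000537).

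Of the other BCL2 family genes, 13 of the 14 listed were on the array, 11 were kept in males and 12 in females. Bnip3, a mitophagy receptor with a BH3 domain that hypoxia induces, rose with CLP in males (1.35, adjusted p = 0.0044) and was higher in CLP-Lnd than in sham in both (1.69, adjusted p = 0.00112 in males, and 1.78, adjusted p = 0.00255 in females). Bok, a relative of the effectors, fell with CLP in males (-1.22, adjusted p = 0.00268). In death receptor signalling, 7 of 8 genes were kept. Tnfrsf1a, the main TNF receptor, rose with CLP in males (0.89, adjusted p = 0.00224), Tnfsf10, which encodes TRAIL, fell in females (-1.94, adjusted p = 0.0027), and Fas was lower in CLP-Lnd than in sham in females (-1.21, adjusted p = 0.00614).

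Among 10 genes that govern MCL1 and BIM through turnover and transcription, Stat3, a factor known to drive Mcl1 and Bcl2l1 transcription, passed most often. It rose with CLP in males (1.59, adjusted p = 3.11e-05) and females (1.06, adjusted p = 0.00157). With landiolol it was lower than in CLP in males (-0.82, adjusted p = 0.0235), while the female difference of -0.29 (adjusted p = 0.645) did not pass. Mcl1 stood at 0.10 (interval -0.22 to 0.42) and Bcl2l1 at 0.21 (interval -0.50 to 0.93) in that male comparison. A link between Stat3 and either gene was not tested. Ddit3, a stress factor that raises BIM, fell with CLP in males (-1.31, adjusted p = 0.00217).

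**Figure D4:**
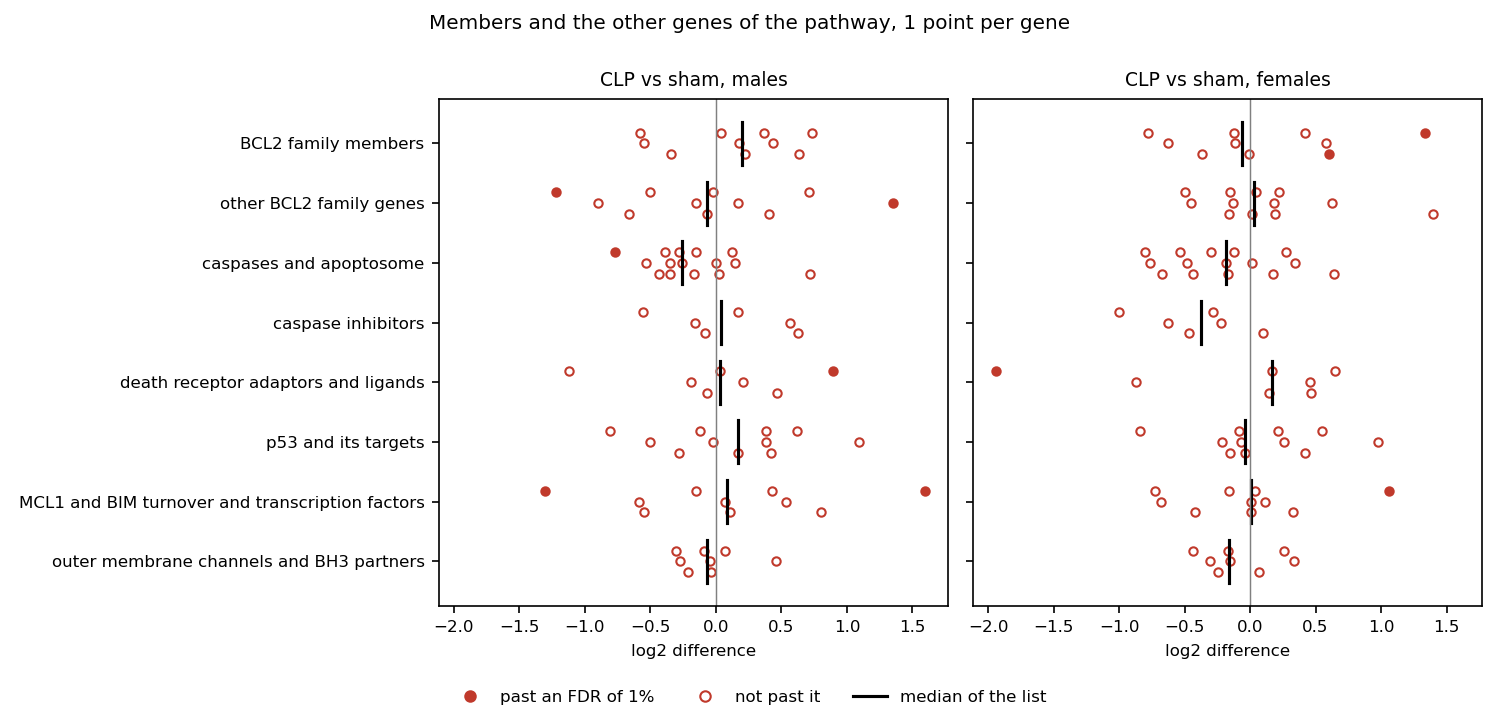
Log2 difference (horizontal axis) of the kept genes of the 7 further lists and of the 10 genes themselves for CLP against sham, males and females apart, each point a gene and each black bar the median of its list. Filled points passed the FDR of 1%, most points are open, and the caspase list has medians of -0.26 and -0.18.

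Markers of other cell types differed between the same groups. Of the 5 neutrophil markers 2, S100a8 and S100a9, were kept, and Mmp8 was above background on 0 of 32 arrays. The log2 of the summed signal of all 5 was 5.08 to 6.20 in female sham hearts, 7.42 to 8.82 in CLP and 7.47 to 10.16 in CLP-Lnd, and 5.29 to 5.73, 7.09 to 9.64 and 8.17 to 9.76 in males. The macrophage and monocyte markers summed to 10.92 to 11.64 in female sham hearts, 12.27 to 13.07 in CLP and 12.38 to 12.72 in CLP-Lnd. In males they summed to 11.13 to 11.60, 12.16 to 12.88 and 12.09 to 12.80. The erythroid markers, of which Slc4a1 alone was kept of 4, summed to 10.35 to 10.75 in female sham hearts, 6.74 to 9.95 in CLP and 6.25 to 8.25 in CLP-Lnd, and to 10.30 to 10.89, 7.21 to 8.44 and 7.39 to 9.18 in males. Slc4a1 fell with CLP in both sexes, with differences of -3.25 in males and -2.96 in females. Of the 8 lymphocyte and NK cell markers 4 were kept, none passed, and their median CLP against sham difference was -0.86 in males and -0.66 in females. Of the 6 fibroblast markers 3 fell and 1 rose with CLP in males and none passed in females. None of the 8 cardiomyocyte markers passed in any comparison, where 0.0945% to 7.81% of all probes did. Actc1 differed from sham by -0.69 (limma adjusted p = 0.0308) in CLP males and -0.72 (adjusted p = 0.0952) in CLP females. In CLP-Lnd it differed from sham by -0.63 (adjusted p = 0.0531) and -1.06 (adjusted p = 0.0105). Of the 8 markers, 3 in males and 4 in females were higher in CLP than in sham. Leukocytes also express Mcl1, and the part of any of these cells in the Mcl1 and Bcl2l1 differences was not tested.

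The genes most like each of the 3 widest-moving members were sought over the 6 group means, each taken relative to the mean of its own sex, by the root mean square distance on the log2 scale. For Bcl2l1, with a span of 1.33 on that scale, they were Sfmbt2 (0.0816), Sorcs1 (0.0838) and Spon1 (0.0864). For Mcl1, with a span of 0.979, they included Mfng (0.0294) and Afdn (0.0338). For Bcl2, with a span of 0.782, they were Igf1 (0.0331), Sh3glb1 (0.0365) and Nf1x (0.0442). These describe closeness over 6 points of the same 32 arrays.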

How the data were processed

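Left ventricular RNA of 32 Wistar rats was hybridised to 1-colour Agilent SurePrint G3 Rat 8x60K arrays. Per the file headers, spots were read with Feature Extraction 10.5.1.1, and the deposited scanner files hold each spot's background-subtracted intensity, not yet normalised between arrays, with marks for outlier, saturated and background spots. The authors' own values are deposited as log2 values, quantile-normalised within a sex and filtered on background, and served as an alternative. Here log2 of the processed intensity was taken, outlier spots were dropped, replicate spots averaged, and the 16 arrays of a sex quantile-normalised. A probe was kept where 80% or more of the arrays of some group marked it as well above background. Tests used limma 3.58.1 (lmFit, eBayes; R 4.3.3) with 3 groups a sex, in place of the SAM test of the methods, which was run as an alternative (100 permutations). The sex difference used all 32 arrays, normalised together. Groups came from the labels. Other alternatives were the scaling, background correction, filter, array weights, normalisation over both sexes, slide or day as a term, another FDR, the groups compared alone, other probes and leaving out each array in turn. The day was taken by reading the digits in the sample titles as a date, and the labels do not say what those digits mean. A term for slide row was chosen after seeing the data. The analysis was tested on simulated data.

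The 10 genes, the lists and the tests were chosen with earlier results of these data known. Named genes were the 10, up to 4 of each list by how many comparisons they passed, and the 3 nearest to each of the 3 genes with the widest span of group means. Coordinates of probes are those of the headers (rn4). Promoter sequence is RefSeq's (GRCr8). Array counts limit the precision. No columns of the authors' comparisons were used. Some results of the lists and of the nearest genes are not reported here.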

Additional observations from a re-analysis of the deposited data

Results flagged for a closer look

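Among 60 groups of levels (10 genes in 6 groups), 3 held a heart that stood far from the rest. Whether this is more than chance would give was not tested. Bcl2l2 was 10.19 in replicate 4 of the female CLP-Lnd hearts, where the next value was 9.71 and the lowest 9.56. Bak1 was 10.91 in replicate 1 of the male sham hearts, with 10.19 next and 9.91 lowest. Bbc3 was 11.09 in the same male sham heart, with 10.35 next and 10.12 lowest. The array of that heart had a mean correlation of 0.969 with its own group, against 0.978 to 0.982 for the rest of the male sham arrays.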

How the results depend on the processing

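The number of the 10 genes past the limit was recomputed under the alternatives. For CLP against sham in males it went from 0 to 2 with array weights and to 2 at an FDR of 5% (Bcl2l2 and Bmf each time), and ran from 0 to 2 when 1 array was left out, 2 without CLP replicate 1. For CLP-Lnd against CLP in males it went from 0 to 1 with array weights and to 1 with SAM, Bcl2 in both, and ran from 0 to 1 without 1 array. For CLP against sham in females it went from 2 to 0 with slide row in the fit and to 0 with the 2 groups alone (Bcl2l1 adjusted p = 0.0137, Mcl1 adjusted p = 0.0210), and ran from 1 to 3 without 1 array. For CLP-Lnd against sham in females it went from 2 to 0 with slide row in the fit, to 5 at an FDR of 5% and to 4 with SAM, which added Bcl2l11 and Bmf. The loss with slide row was not confined to the 10 genes. Of 25395 probes, 20 passed CLP-Lnd against sham in females with it and 1332 without it. In CLP against sham in females 337 passed with it and 923 without it. For CLP against sham in females, Bcl2l1 read on another of its kept probes, A_44_P1085814, gave -0.0757, the opposite sign, without passing. The counts for CLP-Lnd against sham in males, for CLP-Lnd against CLP in females and for both sex differences were 0 in each fit that was run. No paired analysis was possible because the labels give no replicate numbers that tie arrays of different groups. Over all probes, the number called without 1 array ran from 1305 (male CLP replicate 4) to 2364 for CLP against sham in males, from 592 (sham replicate 1) to 872 in females, from 651 (male sham replicate 4) to 1092 for CLP-Lnd against sham in males and from 901 to 1366 in females. For CLP-Lnd against CLP it ran from 121 to 1058 in males and, in females, from 0 (5 of 11 fits) to 132 (without CLP replicate 5), against 24 with all arrays. The number of arrays limits small differences.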
